A study of Mus musculus with 6 samples.

Results

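The 10 core genes of the circadian clock (Clock, Arntl, Per1, Per2, Per3, Cry1, Cry2, Nr1d1, Nr1d2 and Dbp) were examined in mouse RPE/choroid. They were taken by gene symbol from the deposited table, and all 10 were found among its 33924 genes. The RPE is the pigmented epithelium behind the retina, and the choroid is the vascular layer beneath it. Both layers were scraped together from the eyecups of C57BL/6J mice, with 2 eyes in each sample. Total RNA from 3 young and 3 aged mice was sequenced after ribosomal RNA had been removed, without poly(A) selection. Labels give the young mice as 1 to 2 months old. Aged mice are 20 to 24 months old by their titles and 22 to 24 months old by their time label. The labels give all 6 animals as male, but the published methods mention males and females and put the young group slightly older. Every mouse was wild type and untreated as far as the labels say.

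Nearly every cell carries a molecular clock built as a feedback loop. CLOCK and ARNTL (also known as BMAL1) pair up, bind the E-box sequence and switch on the Per, Cry, Nr1d and Dbp genes. PER and CRY proteins then block the pair, while the nuclear receptors encoded by Nr1d1 and Nr1d2 (REV-ERB alpha and beta) repress Arntl. In the RPE the clock is best known for its link to the daily engulfment of shed photoreceptor tips. Levels of most of these transcripts swing over the day, and neither the hour of dissection nor the lighting schedule was given in the sources used here.

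For each gene the value used was the authors' mean over all 6 libraries, in normalized counts. It joins young and aged mice in 1 number, so it carries no SD and no comparison between the ages. The depth of each library is unknown from the table, and a difference between 2 genes below is therefore a description without a test. Across the table the means summed to 19192071. A mean of 0 was listed for 7243 genes and a mean above 0 for 26681.

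All 10 clock genes were measured in RPE/choroid, and all 10 lay above the median of the genes above 0, which was 82.1 normalized counts. Of these, 8 lay above the upper quartile of 616, Arntl and Cry1 being the exceptions. Among genes with a mean of at least 10 the quartile was higher, at 1034, and 4 clock genes passed it. The same 4 genes, Nr1d2, Clock, Per3 and Dbp, stood in the top 10% of all genes above 0. These positions are those of the mean, which grows with transcript length. Per kilobase of the longest annotated transcript, all 10 lay above the median of 46.7 and 6 above the upper quartile of 211 of the 22862 genes above 0 with a length. Against protein-coding genes with a mean of at least 10, whose median per kilobase was 146, 8 lay above, and Per2 and Arntl lay below. Arntl, at 95.9 with its longest transcript, would stand at 155 with the transcript that has its longest coding part. That median used the longest transcript of every gene and was not recomputed, so 155 cannot be placed against it. Together the 10 genes held 0.0999% of the summed means.

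**Figure D1:**
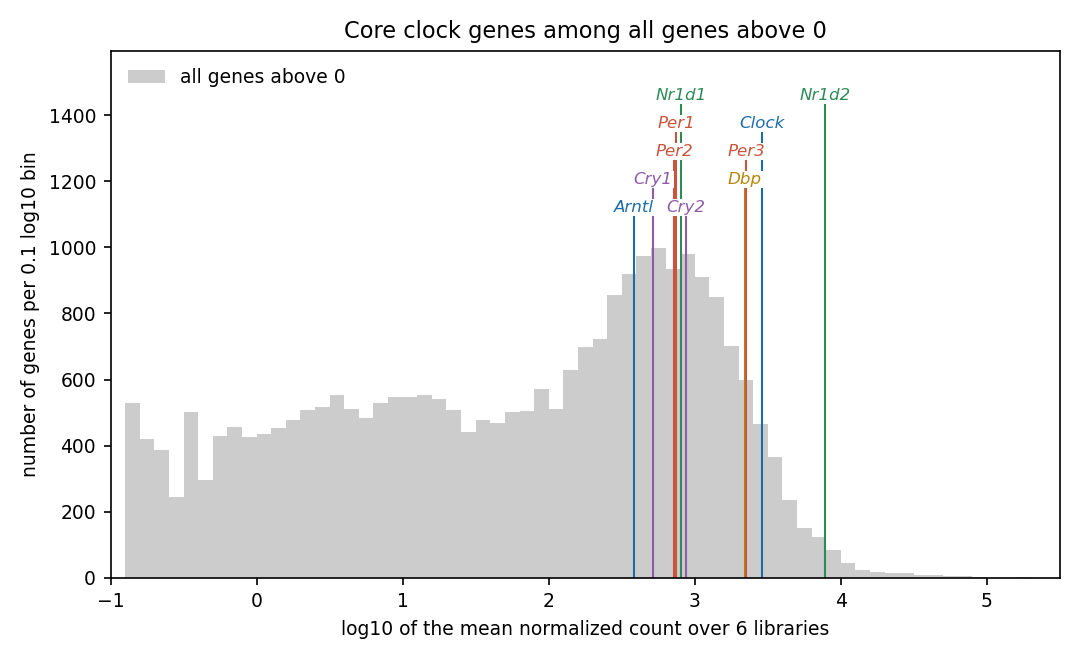
Histogram of the log10 mean normalized count over the 6 libraries for the 26681 genes above 0 (grey bars, number of genes per bin), with a coloured line at each clock gene. The 10 lines run from Arntl at 383 normalized counts to Nr1d2 at 7800, all on the upper side of the median of 82.1.

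The activating pair was unequal in level per kilobase. Clock, which encodes the larger partner of the activator and lies on chromosome 5 from 76209868 to 76304792 (GRCm38, minus strand), had a mean of 2874 normalized counts, at the 95.2 percentile of genes above 0. Arntl, its obligate partner on chromosome 7 from 113207465 to 113314126 (plus strand), had a mean of 383, at the 67.5 percentile. Longer transcripts collect more reads, so genes are ordered per kilobase of the longest annotated transcript (if the authors' values were already in part per length, this understates long transcripts), and means and percentiles are given as the table has them. On that scale Clock stood at 295 and Arntl at 95.9 normalized counts per kilobase. The longest annotated transcript of Arntl is a single retained intron with 1 exon. With the transcript that has the longest coding part, of 20 exons for Arntl and 23 for Clock, Arntl stood at 155 and Clock at 384 per kilobase, so Clock remained the higher partner.

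The period genes encode the repressors whose build-up times the loop. Per3, on chromosome 4 from 151003652 to 151044665 (minus strand), had a mean of 2248 normalized counts at the 93.0 percentile. Per1, on chromosome 11 from 69095217 to 69109960 (plus strand), had 749. Per2, on chromosome 1 from 91415982 to 91459324 (minus strand), had 723. Per kilobase of the longest transcript the levels were 375 for Per3, 160 for Per1 and 124 for Per2. Per3 was above Per1 and Per2 under each of the 5 ways of measuring transcript length that were tried, whereas Per1 and Per2 changed places among them, with a ratio of Per1 to Per2 between 0.781 and 1.29.

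Cryptochromes are the second kind of repressor and partner the PER proteins. Cry2, on chromosome 2 from 92403646 to 92434043 (minus strand), had a mean of 871 normalized counts. Cry1, on chromosome 10 from 85131700 to 85185064 (minus strand), had 518. Per kilobase of the longest transcript Cry2 stood at 219 and Cry1 at 171, a ratio of 1.28. This order depended on the length used, and the ratio ran from 0.362 with median transcript length to 1.72 with coding length.

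Per kilobase of the longest transcript, the REV-ERB receptors differed more from each other than the members of the period or the cryptochrome family did. Nr1d2 (REV-ERB beta), on chromosome 14 from 18204054 to 18239127 (minus strand), had a mean of 7800 normalized counts, at the 99.1 percentile and rank 250 of the whole table. Nr1d1 (REV-ERB alpha), on chromosome 11 from 98767932 to 98775333 (minus strand), had 803, at the 79.1 percentile. On the per-kilobase scale Nr1d2 stood at 1673 and Nr1d1 at 295. The ratio of Nr1d2 to Nr1d1 per kilobase was 5.67 with the longest transcript and between 5.53 and 14.1 over the 5 lengths.

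Dbp encodes a bZIP factor that carries the rhythm to downstream genes by binding the D-box sequence. On chromosome 7 from 45705088 to 45710203 (plus strand), it had a mean of 2202 normalized counts, at the 92.8 percentile. Its longest annotated transcript, of 1837 bases, is shorter than the longest of each other clock gene, and per kilobase Dbp stood at 1199, next to Nr1d2.

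**Figure D2:**
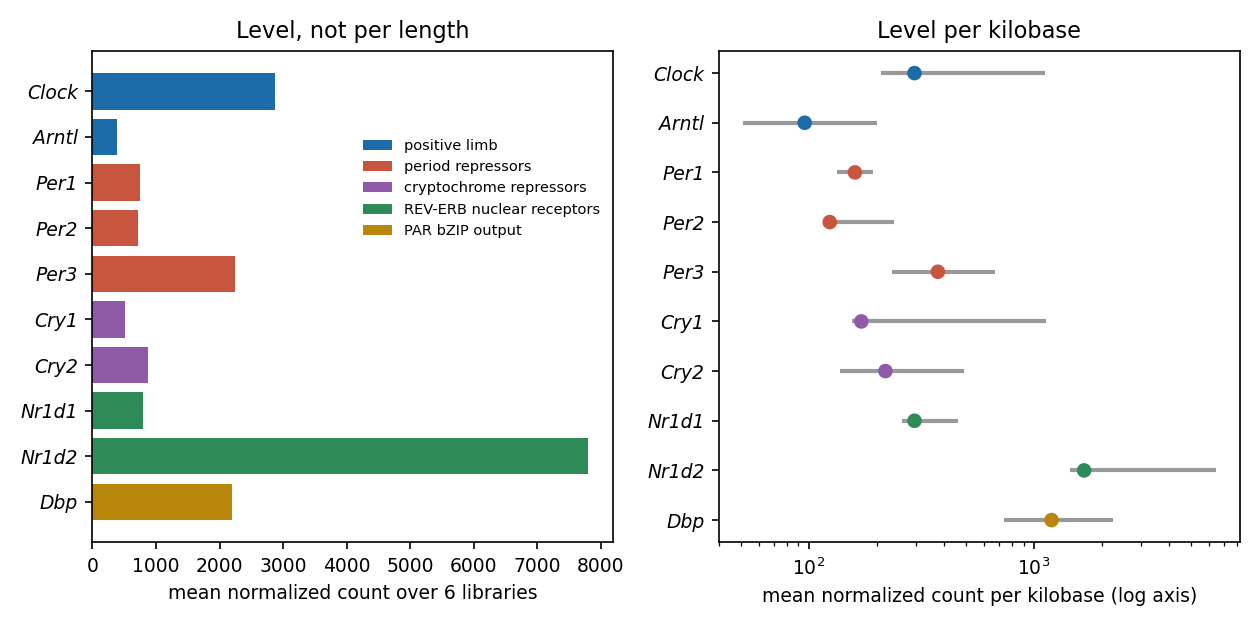
Left, mean normalized count over the 6 libraries for each clock gene, as bars coloured by role. Right, the same mean per kilobase on a log axis, where the point uses the longest annotated transcript and the grey line spans the 5 length definitions (it is no error bar). Nr1d2 at 1673 and Dbp at 1199 normalized counts per kilobase stand above the other 8 genes, which lie between 95.9 and 375.

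Order per kilobase of the longest transcript was Nr1d2, Dbp, Per3, Nr1d1, Clock, Cry2, Cry1, Per1, Per2 and Arntl. Of the 45 pairs of clock genes, 34 kept their order under all 5 lengths and 11 did not. Some of the 34 turn round by the undivided mean. The ratios of undivided means were 0.766 for Dbp to Clock, 0.979 for Dbp to Per3, 0.692 for Cry1 to Per1 and 0.717 for Cry1 to Per2. Nr1d2 was first and Dbp second under every length. By the mean, not divided by length, Nr1d2 at 7800 stayed first, but Clock at 2874 and Per3 at 2248 stood above Dbp at 2202. The lowest place was held by Arntl with the longest transcript, the median length and the union of exons, but by Per2 with coding length and with the transcript that has the longest coding part, where Arntl stood at 155 and Per2 at 124. Nr1d1 and Clock stood at 295 each with the longest transcript and are not ordered by these data, and Clock ranged from rank 3 to rank 5. Cry1 moved most, between rank 3 and rank 7, as its median annotated transcript of 456 bases is much shorter than its longest of 3026. No replicate spread was at hand to judge the gaps between neighbours.

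Reads can be credited to a clock gene only where its sequence is its own. Of the 31-base words in the transcripts of each gene (GENCODE M21, GRCm38), at least 99.5% occurred on the same strand in no other gene for 9 of the 10 genes. The exception was Nr1d2, with 90.5%, because 514 of its 5403 words also occur in AC170187.1, a processed pseudogene on chromosome 19. Arntl, Per1, Per2, Cry1, Nr1d1 and Dbp shared 0 words with any other gene on that strand, their paralogs included. On the opposite strand, Dbp overlaps Sphk2 over 539 exonic bases, Cry2 overlaps D930015M05Rik over 295 and Nr1d1 overlaps Thra over 263. Those neighbours had means of 532, 25.5 and 1735 normalized counts. Libraries were made with a stranded kit, but whether strand was used in counting was not given in the sources used here. Without it, 83.1% of the words of Dbp and 92.1% of those of Nr1d1 would be their own.

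Promoter sequence is shown for the 2 clock genes with an E-box near the start site, for the gene with D-boxes there, and for the clock gene with the highest level per kilobase. Windows of 250 bases before to 50 bases after the annotated start (RefSeq, GRCm38.p6) were held for 9 of the 10 genes, 13 windows in all. Per2 had none. The motifs searched, on both strands, were the E-box CACGTG, the D-box TTATGTAA, the half-site AGGTCA and the cyclic AMP response element TGACGTCA. The half-site is only a part of the element to which REV-ERB and ROR receptors bind. Capitals mark these matches, and each sequence reads 5′ to 3′ on the strand of its gene.
Per1 (chr11:69098699-69098998, plus strand): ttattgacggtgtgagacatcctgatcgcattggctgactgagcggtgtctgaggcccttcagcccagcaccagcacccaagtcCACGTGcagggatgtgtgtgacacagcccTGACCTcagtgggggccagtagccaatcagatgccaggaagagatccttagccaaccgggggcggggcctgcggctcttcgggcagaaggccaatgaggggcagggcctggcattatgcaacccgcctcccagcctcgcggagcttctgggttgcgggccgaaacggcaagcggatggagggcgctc
Cry1 (chr10:85185005-85185304, minus strand): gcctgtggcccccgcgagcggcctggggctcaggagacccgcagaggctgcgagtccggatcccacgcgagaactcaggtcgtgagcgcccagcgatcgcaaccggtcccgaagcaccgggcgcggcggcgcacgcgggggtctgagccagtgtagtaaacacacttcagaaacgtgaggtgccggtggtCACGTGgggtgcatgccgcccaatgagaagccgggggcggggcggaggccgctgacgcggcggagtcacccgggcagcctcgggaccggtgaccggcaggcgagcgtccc
Per3 (chr4:151044616-151044915, minus strand): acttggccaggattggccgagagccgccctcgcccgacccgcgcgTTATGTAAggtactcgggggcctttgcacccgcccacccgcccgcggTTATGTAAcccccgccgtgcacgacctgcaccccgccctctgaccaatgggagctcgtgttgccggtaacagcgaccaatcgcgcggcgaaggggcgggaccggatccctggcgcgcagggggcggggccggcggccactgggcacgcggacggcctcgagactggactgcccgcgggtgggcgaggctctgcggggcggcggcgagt
Nr1d2 (chr14:18239057-18239356, minus strand): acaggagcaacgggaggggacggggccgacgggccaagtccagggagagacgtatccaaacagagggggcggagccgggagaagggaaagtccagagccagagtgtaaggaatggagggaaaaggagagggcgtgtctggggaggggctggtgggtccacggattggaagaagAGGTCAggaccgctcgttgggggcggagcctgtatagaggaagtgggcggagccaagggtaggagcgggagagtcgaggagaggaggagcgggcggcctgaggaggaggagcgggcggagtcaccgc

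The E-box was found in the printed windows of Per1 and Cry1, beginning 166 and 60 bases before the start site of that window. Another window of Per1, at a different start site, held none of the motifs. It occurs in 7.15% of all 32851 promoter windows, and 2 of the 13 clock windows held it. Per3 held a pair of D-boxes, 205 and 158 bases before its start site, and the D-box occurs in 0.938% of all windows. AGGTCA was found in 4 clock windows, 1 each of Clock, Arntl, Per1 and Nr1d2, against 16.3% of all windows. In Per1 it lies 137 and in Nr1d2 77 bases before the start site. The cyclic AMP response element was in 0 of the 13 windows, and in 1.79% of all. No match in a window says only that these letters are not in those 300 bases.

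Other genes of the clock were read from a list of 27. A row was found for 26, with Ciart under its older symbol Gm129, and Noct was not analysed here. Of the 26, 18 lay above the median of genes above 0 by their mean and 16 per kilobase, Timeless and Fbxl21 making the difference. Among transcription factors related to the core genes, Tef, a relative of Dbp, stood at 1767 normalized counts per kilobase of the longest transcript, close to Nr1d2. Nfil3, which represses through the D-box, stood at 47.4. Rora, the activating receptor that competes with REV-ERB for its element, stood at 442 and Rorb at 244. Of the partners and paralogs, Bhlhe40 was highest at 573 and Npas2, which can replace CLOCK, lowest at 6.60. Arntl2, the paralog of Arntl, stood at 25.1, below the 95.9 of Arntl.

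Of the 5 genes for the kinases and ubiquitin ligases that set PER and CRY stability, all lay above the median by their mean and 4 per kilobase. Csnk1d, a casein kinase that phosphorylates PER proteins, stood at 614 normalized counts per kilobase, and Fbxl21, which binds CRY proteins, at 25.7, below the median of 46.7. Among clock outputs, Usp2 stood at 116 and Wee1, a cell-cycle kinase, at 63.3. Of the 7 listed receptors for light, melatonin and dopamine, 1, Drd4 with a mean of 182 normalized counts, lay above the median. The opsins of rods and cones were not in that list. Opn4, the melanopsin gene of retinal ganglion cells, had a mean of 47.5. The melatonin receptor Mtnr1b was listed at 0, and Mtnr1a had a mean of 0.502.

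**Figure D3:**
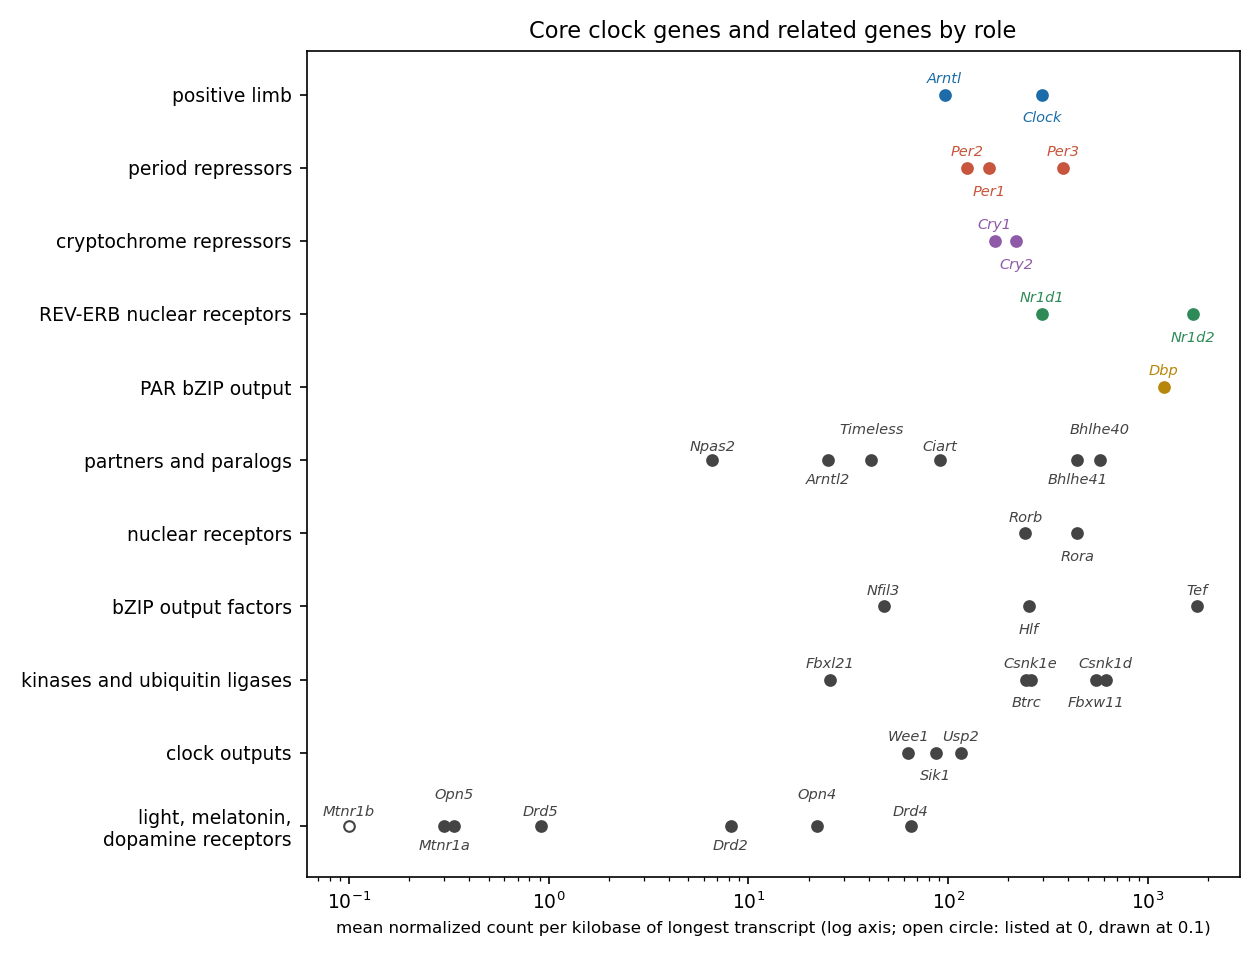
Mean normalized count per kilobase of the longest transcript (log axis) for the 10 clock genes (coloured) and the 26 related genes with a row (dark grey), 1 line per role. The open circle is Mtnr1b, listed at 0 and drawn at the left edge. Nr1d2, Dbp and Tef lie above 1000, and the listed light, melatonin and dopamine receptors lie at 65.0 or below.

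These levels are those of a mixed tissue, in which the number of cells of a type and the RNA per cell cannot be told apart. RPE markers were present, with Rpe65, the retinoid isomerase, at 23481 normalized counts per kilobase, 14.0 times Nr1d2. All 4 rod photoreceptor markers were present too, and Gnat1, the rod transducin gene, stood at 5239 per kilobase. Lists for melanocytes, endothelium, macrophages, skeletal muscle and retinal neurons had 0 genes at 0, with levels per kilobase from 17.6 for the neuron gene Pou4f1 to 27072 for the pigment cell gene Pmel. Skeletal muscle genes were high, with Acta1 at 12062, Myh4 at 8615, Ckm at 4719 and Ttn at 1500 per kilobase, against 1673 for Nr1d2. The RPE gene Best1 stood at only 33.6 per kilobase. How much of each clock transcript came from each cell type was not tested.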

How the data were processed

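The authors trimmed the reads with BBDuk, mapped them with STAR to Ensembl transcripts of GRCm38, quantified transcripts in TPM, a unit scaled by transcript length, with Sailfish and turned these into normalized counts by total count. They compared young with aged mice with DESeq2, per the labels and the study's methods. The deposited signal analysed here, the authors' baseMean, is the mean of normalized counts over all 6 libraries, 1 per gene. The remaining columns hold the authors' own comparison of the ages (log2 fold change, its standard error, Wald statistic, p-value and adjusted p), and these were not used. The table gave 0 columns of values per library, so the planned test of aged against young mice could not be run.

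Whether the conversion from TPM left the values scaled by length was not given in the sources used here, so it was read from the values. Over 13847 protein-coding genes with a mean of at least 10, the slope of log2 mean on log2 length was 0.73 (Spearman rho 0.301, across genes, which are not independent replicates), so the means grew with length, though less than in proportion, and levels were divided by length in kilobases from GENCODE M21 (GRCm38). If the means were already in part per length, levels per kilobase understate long transcripts. Levels of all genes were ranked among genes above 0. Word sharing was counted over annotated transcripts with words of 31 bases, the opposite strand separately. Promoter windows and synonyms came from RefSeq (GRCm38.p6). Calculations used Python 3.11.15, pandas 2.3.3 and NumPy 2.4.6, and helper functions were checked on made-up data. The clock genes and the related list were chosen with earlier results of these data known. The genes named are the 10 clock genes and, of the related list, the highest and lowest of each role per kilobase and any at 0. Arntl2, Timeless, Opn4, Mtnr1a, the genes without their symbol in the table and the markers were named in addition, after their values were seen. Some genes of these lists are not reported here.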

Additional observations from a re-analysis of the deposited data

How the results depend on the processing

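All 10 clock genes lay above the median of the reference genes under the 4 choices planned, among genes above 0, among genes with a mean of at least 10, among protein-coding genes and per kilobase. Per kilobase against protein-coding genes with a mean of at least 10, chosen after seeing the data, 8 lay above the median of 146, without Per2 and Arntl, and 3 above the upper quartile. Arntl stood at 155 with the transcript of the longest coding part, but the median was not recomputed with that length. The number above the upper quartile was 8 among genes above 0, 6 per kilobase, and 4 with a minimum mean of 10, where low genes leave the reference by construction. It was 4 among protein-coding genes as well, where the upper quartile was 1026, against 616 among all genes above 0. The means of the clock genes are the same in both, and why the quartile was higher was not tested. The ratio of the highest to the lowest clock gene per kilobase, 17.4 with the longest transcript, was 46.0 with median transcript length, 28.3 with the union of exons, 23.6 with coding length and 13.5 with the transcript that has the longest coding part, the last chosen after seeing the data. Of the 10 levels per kilobase, 6 moved by over 1.5 times with median length, 4 with the union of exons, 8 with coding length and 1, that of Arntl, with the transcript of the longest coding part.

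No paired analysis was possible because each gene has 1 mean over all mice. Values of single libraries are likewise needed for the fits of aged against young mice, other pseudocounts and filters, and fits that leave out 1 library, so these were not run. Precision and depth of single values are unknown.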
